A study of Rattus norvegicus with 6 samples.

Results

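Aminoacyl-tRNA synthetases are the enzymes that attach each amino acid to its tRNA, and so supply the charged tRNAs that ribosomes read. Mammalian cells hold one set in the cytosol and another, encoded by separate nuclear genes, in mitochondria. Several cytosolic enzymes sit together in a multi-synthetase complex held by the scaffold proteins Aimp1, Aimp2 and Eef1e1. Many cytosolic synthetase genes are known targets of ATF4, the transcription factor that is made when amino acids run short or the endoplasmic reticulum is stressed.

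The genes were chosen by symbol: every probe set annotated to a single symbol of a synthetase, Aimp1 or Aimp2 was taken. That gave 53 of 31042 probe sets, for 34 of the 14217 genes with such a probe set. The probe set of highest mean log2 signal over the 6 arrays stood for its gene. Of the 34 genes, 19 encode cytosolic enzymes, 2 encode scaffolds and 13 encode mitochondrial enzymes. Gars1 and Kars1, whose products work in both compartments, were counted as cytosolic. All 34 lay above the signal filter. Lars2, Mars2 and Pars2 are among the genes not analysed here.

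Signals came from 1-colour Affymetrix rat arrays of RK3E, a rat kidney epithelial line immortalised with adenovirus E1A. The 4 GLI1 arrays carried RNA of RK3E cells transfected with an expression construct for GLI1, the zinc finger factor that carries Hedgehog signals, from foci that were picked and kept as lines. Of these, 2 arrays came from clone II, 1 from clone I and 1 has no clone named; these last 2 are called the other GLI1 arrays. The 2 remaining arrays came from parental RK3E cells, and both groups were grown in serum-containing DMEM. Each GLI1 clone is a single focus, so the clones speak for few transformation events. Array medians ran from 568 to 692 in GLI1 cells, against 647 and 697 in parental cells. The GAPDH 3'/5' ratio, a measure of RNA integrity, was 7.52 and 1.39 in clone II, 2.09 without a named clone and 1.45 in clone I, against 3.66 and 1.43 in parental cells. Gli1 itself had log2 signals from 11.71 to 13.15 on the GLI1 arrays, against 5.17 and 6.50 on the parental arrays.

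The line was checked against markers of cell types. Of 8 epithelial markers 5 lay above the filter, and Cdh1, Krt18 and Krt19 lay below it. All 6 mesenchymal markers lay above it, and none of the 3 measured endothelial or 4 measured immune markers did. The mesenchymal markers fell together with the changes described below, 6 of 6, with summed signals of 16318 to 40074 in GLI1 cells against 257915 to 281248 in parental cells. The summed epithelial signal was 13902 to 25201 in GLI1 cells against 34291 to 36225 in parental cells, but its members did not move one way. Dsp and Jup fell (log2 -1.12 and -1.73, adjusted p = 0.00702 and 0.00225, limma), Cldn1 rose (1.95, 0.014), and Krt8 and Epcam did not pass (0.49, 0.783, and 1.15, 0.281). Krt8 was lower in clone II than in the other GLI1 arrays (log2 -3.17, adjusted p = 0.0157, limma). The part of these markers in the synthetase results was not tested. RNA came from whole cultures, so more RNA per cell and more cells with high levels cannot be told apart.

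The promoters of 32 of the 34 genes were in the RefSeq table of build GRCr8, which gives 250 bases before and 50 after each gene's start. Gars1 and Rars1 had no entry. The letters TGATGCAA, the core shared by many ATF4 composite elements, were searched on both strands, where the reverse reads TTGCATCA. They were found in 7 of 17 cytosolic synthetase genes, 0 of 13 mitochondrial ones and 0 of 2 scaffold genes, and in 266 of 33469 windows of all genes (0.795%). Of the amino acid response genes described below, 2 of the 23 with a window held them (8.7%). The core was in 3 of the 5 cytosolic genes with a window that rose in GLI1 cells and in 4 of the 12 that did not pass. Of the stretches 6 are shown, as examples of the match. Each is 30 bases on the gene's own strand, with the match in capitals:
Yars1: cggagctacgagctcagcTGATGCAAcctg
Iars1: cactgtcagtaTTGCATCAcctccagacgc
Cars1: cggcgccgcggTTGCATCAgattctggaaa
Mars1: gcccgttccggTTGCATCAgcgtgggctcc
Nars1: cctaggtgatcTGATGCAAcgcttcagtca
Tars1: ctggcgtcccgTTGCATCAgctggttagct
The stretches lie at chr5:146820183-146820212 (plus strand) for Yars1, chr17:15193658-15193687 (minus strand) for Iars1, chr1:208225334-208225363 (minus strand) for Cars1 and chr7:65023752-65023781 (minus strand) for Mars1. Those of Nars1 and Tars1 lie at chr18:60275778-60275807 (minus strand) and chr2:62114811-62114840 (minus strand). The match begins 24, 17, 14 and 27 bases before the start in Iars1, Mars1, Nars1 and Tars1, and at transcribed base 18 in Cars1 and 39 in Yars1. A binding motif of GLI factors, GACCACCCA, was found in 0 of the 32 genes and in 0.385% of all windows. Both motifs were picked with expression values in view, and a match describes letters only.

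The study compared GLI1-transformed with parental cells, and the synthetase transcripts were read from that comparison. Of 34 genes, 9 rose, 0 fell and 25 did not pass (limma, Benjamini-Hochberg adjusted p under 0.05, fitted over 18625 probe sets). Among all tested probe sets 5.84% rose and 7.25% fell, and among the 9908 at least as bright as the dimmest cytosolic synthetase 8.42% rose and 7.85% fell. With 1 probe set per gene, as for the synthetases, 7.8% of genes rose and 7.75% fell. Differences were above 0 for 29 of 34 genes, against 50.3% of all tested probe sets and 55.3% of genes with 1 probe set each. The median log2 difference was 0.60 for the 34 genes. It was 0.0047 for all tested probe sets and 0.071 for genes with 1 probe set each. All 4 GLI1 arrays lay above both parental arrays for 21 genes, against 19% of tested probe sets and 23.4% of genes with 1 probe set each, and below them for 1 gene, Cars2, against 20.2%.

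**Figure D1:**
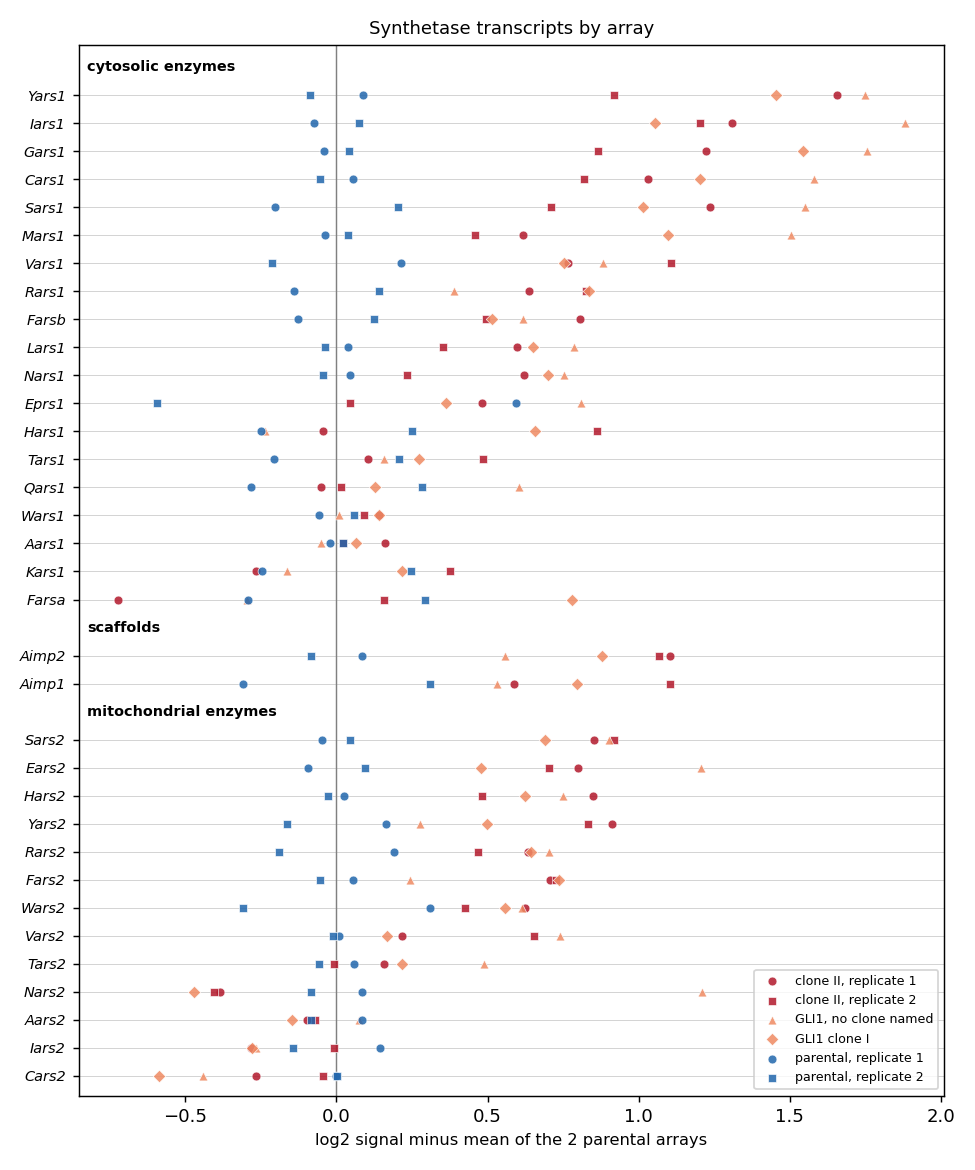
Log2 signal of each gene on each array, minus the mean of the 2 parental arrays; each row is a gene and each symbol an array. In the upper rows of the cytosolic block, from Yars1 to Nars1, all 4 GLI1 arrays lie to the right of both parental arrays, and in the rows below, from Eprs1 to Farsa, they overlap.

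Of the 19 genes of cytosolic enzymes 7 rose, 0 fell and 12 did not pass, with a median log2 difference of 0.60. That is 36.8% risen, against 7.8% of all genes with 1 probe set each. Yars1, the tyrosine enzyme, had log2 signals of 15.26 and 14.52 in clone II, 15.35 without a named clone and 15.06 in clone I, against 13.69 and 13.51 in parental cells. Every GLI1 array lay above both parental arrays, with averages of 15.05 ± 0.37 in GLI1 cells (SD, n = 4) and 13.60 ± 0.12 in parental cells (SD, n = 2). The rise was 2.72-fold (log2 1.45, SE 0.24, adjusted p = 0.0054, limma).

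Iars1, the isoleucine enzyme of the multi-synthetase complex, had 14.13 and 14.02 in clone II, 14.70 without a named clone and 13.87 in clone I, against 12.74 and 12.89 in parental cells. It rose 2.57-fold (log2 1.36, SE 0.23, adjusted p = 0.00696), and the groups did not overlap. Gars1, the glycine enzyme of both compartments, had 14.97 and 14.61 in clone II, 15.50 without a named clone and 15.29 in clone I, against 13.70 and 13.79 in parental cells. This was a 2.54-fold rise (log2 1.35, SE 0.24, adjusted p = 0.00804), with clone II replicate 2 the lowest of the GLI1 arrays. A probe set does not tell the cytosolic from the mitochondrial form.

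Cars1, the cysteine enzyme, had 13.41 and 13.20 in clone II, 13.96 without a named clone and 13.58 in clone I, against 12.43 and 12.32 in parental cells. It rose 2.23-fold (log2 1.16, SE 0.22, adjusted p = 0.011). Sars1, which charges serine and also supplies the tRNA from which selenocysteine is made, had 14.45 and 13.92 in clone II, 14.76 without a named clone and 14.23 in clone I, against 13.01 and 13.42 in parental cells. Its rise was 2.19-fold (log2 1.13, SE 0.24, adjusted p = 0.018). For both genes the array with no clone named was the highest and clone II replicate 2 the lowest of the GLI1 arrays, and no GLI1 array overlapped a parental one.

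Vars1, the valine enzyme, and Rars1, the arginine enzyme of the complex, rose by less. Vars1 had 12.53 and 12.87 in clone II, 12.65 without a named clone and 12.52 in clone I, against 11.98 and 11.55 in parental cells, a 1.84-fold rise (log2 0.88, SE 0.20, adjusted p = 0.0239). Rars1 had 14.11 and 14.30 in clone II, 13.86 without a named clone and 14.31 in clone I, against 13.33 and 13.61 in parental cells, a 1.59-fold rise (log2 0.67, SE 0.19, adjusted p = 0.0474). Rars1 passed in 5 of 14 alternative settings, and the other 6 risen cytosolic genes in 10 or 11. In Rars1 the array with no clone named was the lowest GLI1 array, unlike in the 5 genes above.

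The calls rested on both parental arrays. Calls over all tested probe sets also became fewer in each fit of this paragraph, as given in the closing section. The log2 differences of the 9 risen genes were 0.53 to 1.53 when the first parental array was left out and 0.66 to 1.44 when the second was. In either case 0 of the 34 genes passed (lowest adjusted p 0.0521 and 0.0535, limma), while 15 and 13 had an unadjusted p under 0.05. Leaving out the 2 arrays of highest GAPDH ratio, clone II replicate 1 and parental replicate 1, gave differences of 0.54 to 1.46 for the same 9 genes. In that fit 0 of 34 passed (limma, lowest adjusted p 0.0968), with 11 at an unadjusted p under 0.05.

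**Figure D2:**
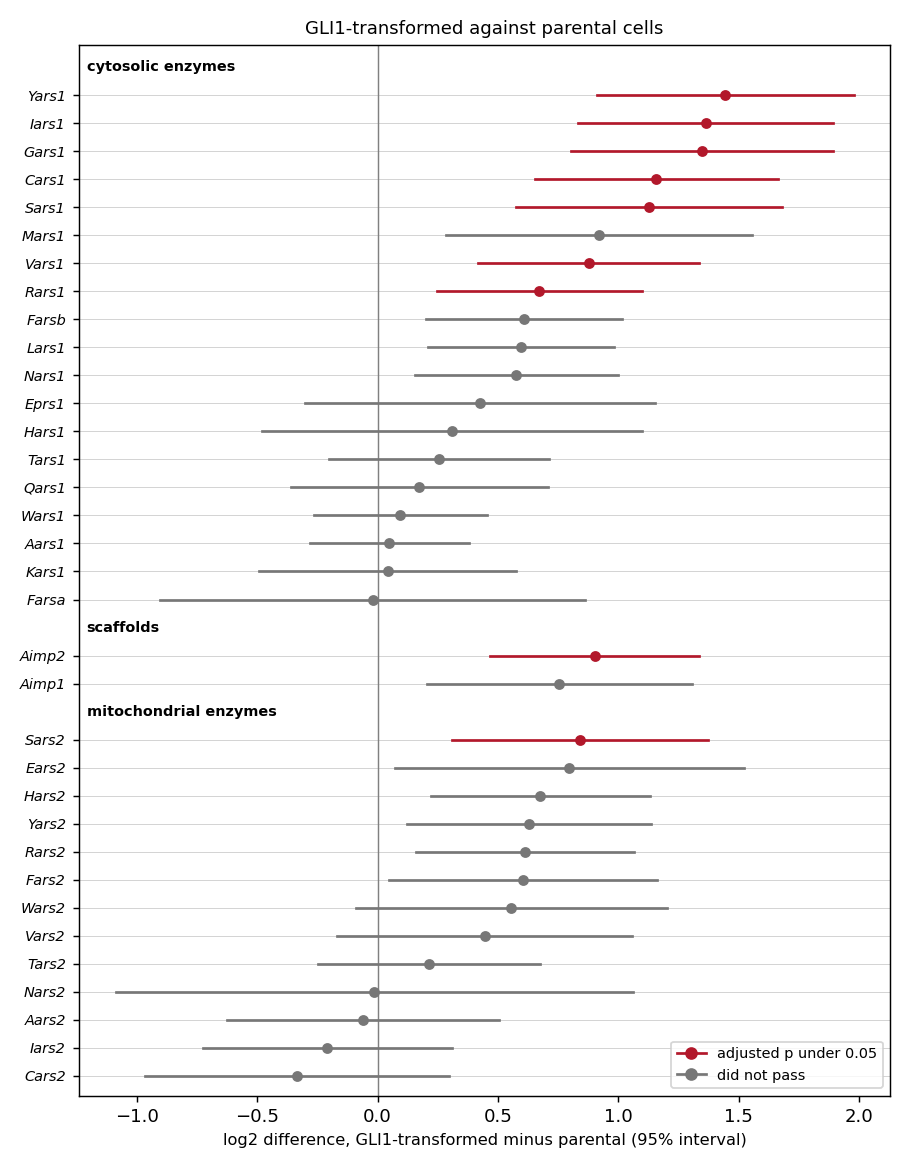
Log2 difference of GLI1-transformed minus parental cells for each gene, with its 95% interval from limma. Red marks the 9 genes with an adjusted p under 0.05, of which Yars1 has the largest difference, 1.45; grey marks the 25 that did not pass.

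A further 4 cytosolic genes had all GLI1 arrays above the parental arrays but did not pass. Mars1, the methionine enzyme that also charges the initiator tRNA, had the largest difference among genes that did not pass (log2 0.92, SE 0.28, adjusted p = 0.063). The differences were 0.61 for Farsb, a subunit of the phenylalanine enzyme (adjusted p = 0.0571), 0.60 for Lars1, the leucine enzyme (0.0515), and 0.58 for Nars1, the asparagine enzyme (0.0759). The remaining 8 cytosolic genes overlapped between the groups.

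Aars1, the alanine enzyme, had 14.84 and 14.70 in clone II, 14.62 without a named clone and 14.74 in clone I, against 14.65 and 14.70 in parental cells. Its log2 difference was 0.05, with a 95% interval of -0.28 to 0.38 that leaves out the differences of Yars1, Iars1, Gars1, Cars1 and Sars1. Wars1, the tryptophan enzyme, which interferon induces in many cells, had 13.11 and 13.06 in clone II, 12.98 without a named clone and 13.11 in clone I, against 12.91 and 13.03 in parental cells. That is a difference of 0.09 with an interval of -0.27 to 0.45. These 2 genes had the narrowest spread between GLI1 arrays of the cytosolic set (SD 0.09 and 0.06, n = 4).

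The other 6 had wider intervals. The lysine enzyme Kars1 gave 0.04 (-0.49 to 0.58), the glutamine enzyme Qars1 0.17 (-0.36 to 0.71) and the threonine enzyme Tars1 0.26 (-0.20 to 0.71). Hars1, the histidine enzyme, gave 0.31 (-0.48 to 1.10) and Farsa, the other phenylalanine subunit, -0.02 (-0.90 to 0.86). Eprs1, which charges both glutamate and proline, gave 0.42 (-0.30 to 1.15). It had 14.87 and 14.43 in clone II, 15.20 without a named clone and 14.75 in clone I, against 14.98 and 13.79 in parental cells, whose arrays stood far apart. The next brightest Eprs1 probe set gave 0.69 (adjusted p = 0.142, limma). There every GLI1 array lay above the parental arrays, which had 13.84 and 13.65. A dimmer probe set gave 0.27 with overlapping groups, and the dimmest lay below the filter.

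Synthetases fall into 2 structural classes by the fold of their catalytic domain. Among cytosolic class I enzymes 5 of 9 rose (Yars1, Iars1, Cars1, Vars1 and Rars1), with a median log2 difference of 0.88. Among the genes of class II enzymes, where Farsa and Farsb of the phenylalanine enzyme count apart, 2 of 9 rose (Gars1 and Sars1). Their median was 0.31 over the 9 genes. Of the 7 genes of multi-synthetase complex enzymes 2 rose (median 0.60), and of the 12 genes of enzymes outside the complex 5 rose (median 0.59). Of all genes with 1 probe set each, 7.8% rose. No difference between the classes, or between enzymes inside and outside the complex, was tested.

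The complex's scaffold gene Aimp2 had 14.84 and 14.81 in clone II, 14.30 without a named clone and 14.62 in clone I, against 13.82 and 13.66 in parental cells. It rose 1.87-fold (log2 0.90, SE 0.19, adjusted p = 0.017), and the array with no clone named was the lowest of the GLI1 arrays. Aimp1, the other scaffold measured by the rule, had 12.53 and 13.04 in clone II, 12.47 without a named clone and 12.73 in clone I, against 11.63 and 12.25 in parental cells. The groups did not overlap, and the difference of 0.76 (SE 0.24) did not pass (adjusted p = 0.0751). Eef1e1, the third scaffold, gave 0.31 (adjusted p = 0.337).

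Among the mitochondrial enzymes 1 of 13 rose (7.69%, against 7.8% of all genes with 1 probe set each), 0 fell and 12 did not pass. The median log2 difference was 0.56. All GLI1 arrays lay above both parental arrays for 8 genes (61.5%, against 23.4% of all genes with 1 probe set each). Sars2, the mitochondrial serine enzyme, had 10.50 and 10.57 in clone II, 10.55 without a named clone and 10.34 in clone I, against 9.61 and 9.70 in parental cells. It rose 1.79-fold (log2 0.84, SE 0.24, adjusted p = 0.0473), close to the threshold, and it passed in 5 of 14 alternative settings.

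Of the mitochondrial enzymes that did not pass, the largest differences were 0.80 for Ears2 (glutamate, adjusted p = 0.137), 0.68 for Hars2 (histidine, 0.0574) and 0.63 for Yars2 (tyrosine, 0.101). Rars2, Fars2, Wars2 and Vars2 gave 0.61, 0.60, 0.56 and 0.44, with GLI1 arrays above the parental arrays in each (adjusted p = 0.0774, 0.143, 0.236 and 0.319). Tars2 gave 0.21, Nars2 -0.01, Aars2 -0.06 and Iars2 -0.21, all with overlapping groups.

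Cars2, the mitochondrial cysteine enzyme, was the gene with every GLI1 array below both parental arrays. It had 9.69 and 9.91 in clone II, 9.51 without a named clone and 9.37 in clone I, against 9.95 and 9.95 in parental cells. Its difference of -0.33 (95% interval -0.97 to 0.30) did not pass (adjusted p = 0.479). Its cytosolic partner Cars1 rose, as given above. In the serine pair both Sars1 and Sars2 rose. For tyrosine Yars1 rose and Yars2, at 0.63, did not pass. For isoleucine Iars1 rose and Iars2 gave -0.21, and for valine Vars1 rose and Vars2 gave 0.44. For arginine Rars1 rose (0.67, adjusted p = 0.0474, limma), and Rars2 gave a like difference that did not pass (0.61, 0.0774). No difference between paired genes was tested.

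Clone II and the other GLI1 arrays were then set against parental cells in 1 model with 3 groups, in which they share the parental arrays. In clone II 7 of 34 genes rose and 0 fell, where 3.99% of tested probe sets rose and 5.74% fell: Yars1, Iars1, Gars1, Cars1, Vars1, Aimp2 and Yars2. In the other GLI1 arrays 9 rose and 0 fell, where 5.57% of tested probe sets rose and 6.83% fell: Yars1, Iars1, Gars1, Cars1, Sars1, Mars1, Lars1, Nars1 and Aimp2. Tested directly against each other, clone II and the other GLI1 arrays differed in 0 of 34 genes (limma, lowest adjusted p 0.292), with 3 at an unadjusted p under 0.05. Of all tested probe sets 0.129% were called in that contrast, 0.0161% higher and 0.113% lower in clone II. In the refits that follow, which leave 1 array in a group, calls against parental cells over all tested probe sets also became fewer. The clone II count was 0 when its own replicate 1 was left out (limma, 10 genes at an unadjusted p under 0.05) and 2 when its replicate 2 was. It was also 0 with the first or the second parental array left out (limma, 9 and 12 genes at an unadjusted p under 0.05). The count in the other GLI1 arrays was 3 without either parental array.

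Mars1 had the lowest p in that direct contrast. It had 13.37 and 13.21 in clone II, 14.26 without a named clone and 13.85 in clone I, against 12.71 and 12.79 in parental cells. The difference from parental was 0.54 in clone II (adjusted p = 0.154) and 1.30 in the other GLI1 arrays (adjusted p = 0.0059). Clone II minus the other GLI1 arrays gave -0.76 (SE 0.21, adjusted p = 0.292).

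Yars2 ran the other way. It had 13.47 and 13.39 in clone II, 12.83 without a named clone and 13.05 in clone I, against 12.72 and 12.39 in parental cells. Both clone II arrays lay above the other GLI1 arrays, and the difference from parental was 0.87 in clone II (adjusted p = 0.0353) and 0.39 in the other GLI1 arrays (0.269). The contrast between them, 0.49 (SE 0.21), did not pass (adjusted p = 0.569).

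Lars1 had 14.22 and 13.98 in clone II, 14.41 without a named clone and 14.28 in clone I, against 13.66 and 13.59 in parental cells. Nars1 had 14.25 and 13.86 in clone II, 14.38 without a named clone and 14.33 in clone I, against 13.67 and 13.58 in parental cells. In both genes clone II replicate 2 was the lowest GLI1 array. They rose in the other GLI1 arrays (log2 0.72, adjusted p = 0.0415, and 0.73, 0.0489) and did not pass in clone II (0.47, 0.161, and 0.43, 0.226).

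**Figure D3:**
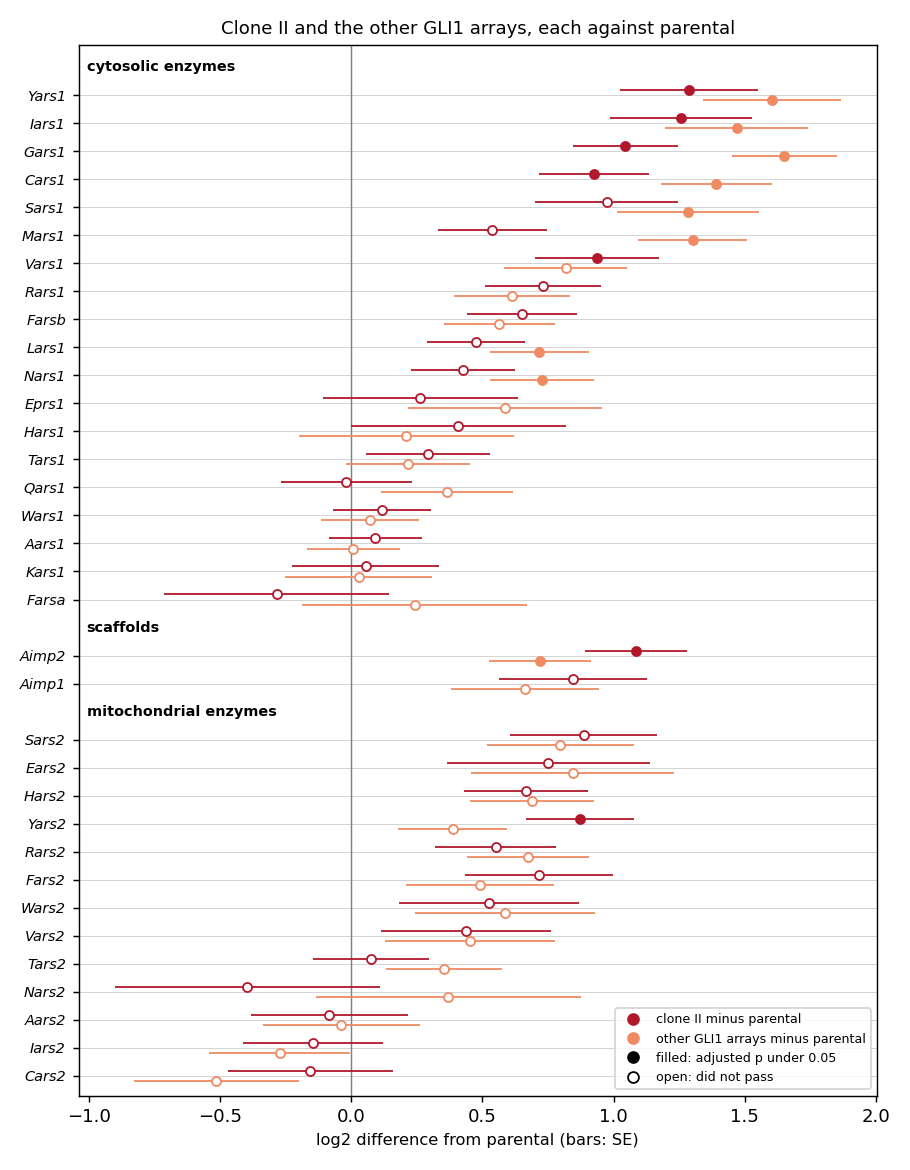
Log2 difference from parental cells for clone II and for the other GLI1 arrays, with SE bars; filled points have an adjusted p under 0.05. Mars1 stands at 0.54 in clone II and 1.30 in the other GLI1 arrays, and Yars2 at 0.87 and 0.39.

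Of the 34 genes 15 had more than 1 probe set, with 19 further probe sets in all. Of these 4 lay below the filter, and of the 15 tested 0 were called in all GLI1 against parental cells (limma; lowest adjusted p 0.0697), while 14 gave a difference above 0. In the other GLI1 arrays against parental cells 1 of the 15, for Cars1, rose (log2 1.39, adjusted p = 0.0182, limma). The other probe sets of Cars1 gave 1.02 (adjusted p = 0.0697), 0.80 (0.218) and 0.39 (0.642). Those of Gars1, Mars1 and Iars1 gave 1.05 (0.119), 1.15 (0.213) and 0.69 (0.265). The difference below 0 was that of the other Hars1 probe set, -0.21 (0.887), whose clone II replicate 1 value was 8.41 against 10.04 and 10.98 in parental cells. Yars1, Sars1, Rars1, Aimp2 and Sars2 rest on 1 probe set each, and the second probe set of Vars1 lay below the filter. Signals of different probe sets do not compare amounts between genes. The brightest genes by mean log2 signal were Aars1 (14.71), Eprs1 (14.67) and Gars1 (14.64), and the dimmest were Ears2 (9.35), Cars2 (9.73) and Wars2 (9.77).

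**Figure D4:**
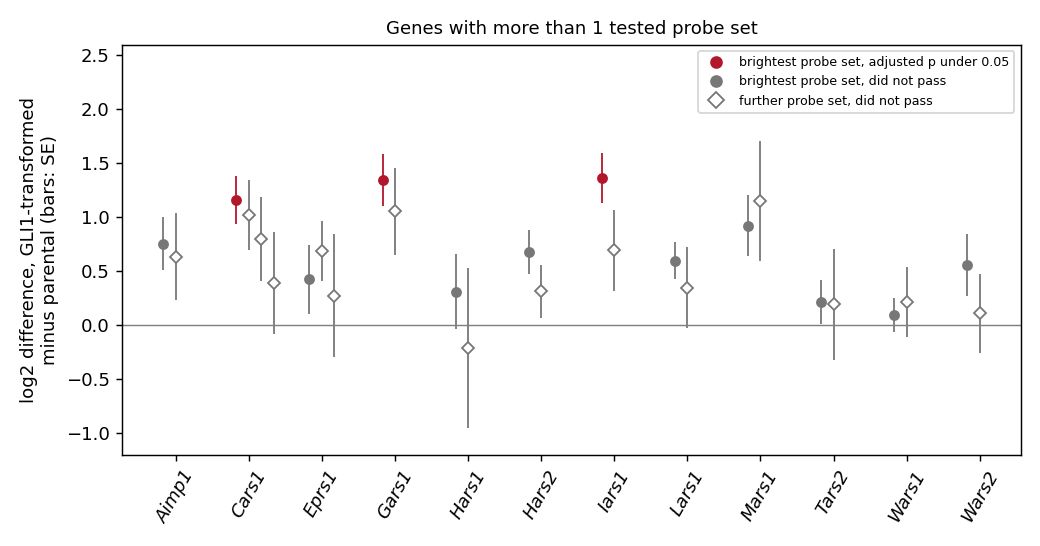
Log2 difference of GLI1-transformed minus parental cells, with SE bars, for the 27 tested probe sets of the 12 genes with more than 1. Circles are the brightest probe set of a gene and diamonds the further ones; the diamonds lie above 0 in every gene but Hars1.

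The cytosolic genes were set beside a list of 12 reported elsewhere as ATF4 targets. The list was chosen with earlier results of these data known, so the split is no independent evidence, and it was not tested. Of the 12 on it 5 rose (Yars1, Iars1, Gars1, Cars1 and Sars1), with a median log2 difference of 0.76, and of the 7 others 2 rose (Vars1 and Rars1), with a median of 0.31. In the other GLI1 arrays against parental cells 8 of the 12 rose and 0 of the 7. Of all genes with 1 probe set each, 7.8% rose in the first comparison and 7.34% in the second.

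The array with no clone named was the highest of all 6 for 9 of the 12 listed genes, and for 4162 of all 18625 tested probe sets, more than any other array. Their median log2 signal above the parental mean was 0.62 and 0.47 in clone II, 1.16 without a named clone and 0.86 in clone I. For the 7 others the same median was -0.04 and 0.49 in clone II, 0.39 without a named clone and 0.66 in clone I, with parental arrays at -0.25 and 0.25. For all tested probe sets it stayed between -0.02 and 0.06 on the GLI1 arrays.

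Other genes of the amino acid response, the programme that ATF4 drives, gave 11 risen, 1 fallen and 13 not passed of 25 tested, with a median log2 difference of 1.13. Of all genes with 1 probe set each, 7.8% rose and 7.75% fell. This list too was chosen with earlier results of these data known. Mthfd2, a mitochondrial folate enzyme, had a log2 rise of 2.13 with an SE of 0.23 (adjusted p = 0.000761). The serine pathway genes Psat1, Psph and Shmt2 rose by 1.40, 1.32 and 1.56 (adjusted p = 0.00586, 0.00918 and 0.0072). Asns, which makes asparagine, rose by 1.66 (0.0061), the stress factor gene Ddit3 by 1.55 (0.0149), the cystine transporter gene Slc7a11 by 1.94 (0.0199) and the translation repressor gene Eif4ebp1 by 1.37 (0.0216). The gene that fell was the stress factor gene Nupr1 (-2.70, 0.0217), and Atf4 itself gave 1.13 (0.0943); both were picked out after their values were seen. The list held 1 risen gene with the first parental array left out and 3 with the second left out. The array with no clone named was the highest of all 6 for 19 of the 25, beside the 4162 of 18625 for all tested probe sets, and its GAPDH ratio, 2.09, lay between those of the other arrays.

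**Figure D5:**
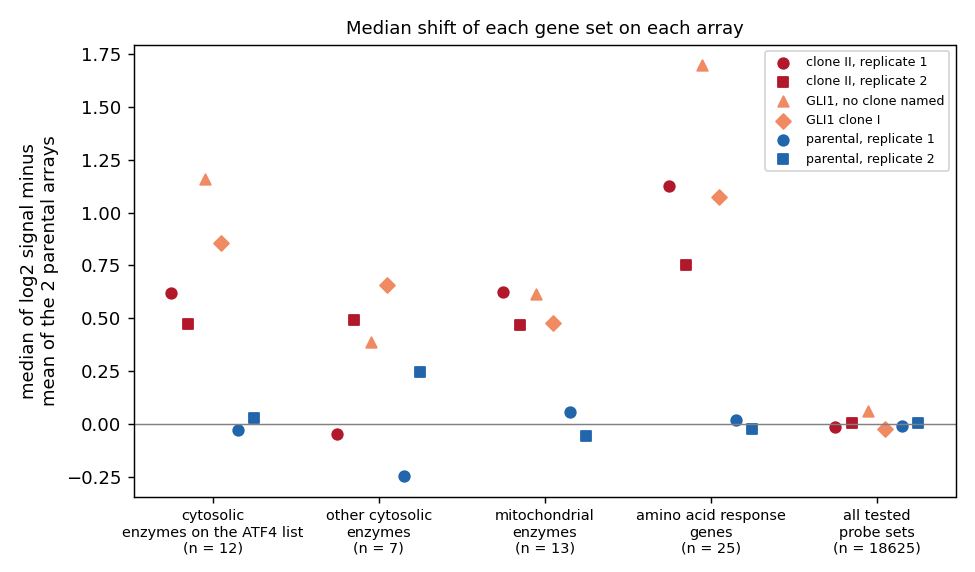
Median, over each set of genes, of the log2 signal minus the mean of the 2 parental arrays, for each array. The array with no clone named is the highest for the cytosolic enzymes on the ATF4 list (1.16) and for the amino acid response genes (1.70), and clone I is the highest for the other cytosolic enzymes (0.66).

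Partner genes of tRNA charging, 13 measured and tested, gave 1 risen, 0 fallen and 12 not passed, with a median of 0.35. The share risen was 7.69%, against 7.8% of all genes with 1 probe set each. The gene that rose was Qrsl1, a subunit of the enzyme that makes glutaminyl-tRNA in mitochondria, which have no glutaminyl-tRNA synthetase of their own (log2 0.92, SE 0.21, adjusted p = 0.0238). The other subunits of that enzyme, Gatc and Gatb, named after their values were seen, gave 0.85 (adjusted p = 0.0852) and 0.45 (0.469). The call of Qrsl1 was lost with either parental array left out, when 0 of the 13 passed (limma; lowest adjusted p 0.223 and 0.0772), with 3 and 2 at an unadjusted p under 0.05.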

How the data were processed

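Biotin-labelled cRNA from total RNA of 6 RK3E cultures was hybridised to 1-colour Affymetrix arrays. The deposited values are linear signal intensity from MAS5, per the submitters' processing notes, with no version given. Their 2% trimmed means, 2494 to 2495, show scaling to a common level. Slide and scan batches and genome build are not given in the sources used here.

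The 57 control probe sets were dropped, intensities were floored at 1 and log2 was taken. Probe sets with a mean log2 signal above the 40th percentile (8.33, signal 322) were kept, 18625 of 31042. GLI1 was compared with parental cells (4 against 2 arrays, 4 residual degrees of freedom), and clone II, the other GLI1 arrays and parental cells in a 3-group model (3 residual degrees of freedom). Tests were two-sided in limma 3.58.1 (R 4.3.3) with an intensity trend and p-values adjusted by Benjamini-Hochberg across the 18625 probe sets, threshold 0.05. The code was tested on simulated data. Gene names came from the platform annotation: 20826 probe sets have 1 symbol, 436 several and 9780 none, and those with several were not used. Some items, 1 promoter stretch among them, are not reported here. No pair of arrays shared more than 16 identical values.

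The genes and lists were chosen with earlier results of these data known. All 34 genes are named. Those called in any comparison have values for each array, as do a few others singled out after their values were seen, and of the other lists up to 8 called genes are named by adjusted p. The labels call the samples biological replicates without saying how cultures were kept apart, so p-values may measure technical spread. The number of arrays limits the precision. Alternatives were median centring, quantile normalization, other filters, 32 added before log2, no intensity trend, a replicate block, other probe sets, each array left out, and the 2 arrays of highest GAPDH ratio left out.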

Additional observations from a re-analysis of the deposited data

Results flagged for a closer look

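In 3 of the 34 genes a single GLI1 array stood apart from the other 3, by Dixon's ratio of its gap to the whole range at the 95% critical value for 4 arrays. Chance flags about 1 in 20 groups. All 3 are mitochondrial enzymes. Nars2, the asparagine enzyme, was high on the array with no clone named, at 11.16, against 9.57, 9.55 and 9.48 on the other GLI1 arrays (ratio 0.949). Fars2, the phenylalanine enzyme, was low on the same array (ratio 0.944). Iars2, the isoleucine enzyme, was high on clone II replicate 2 (ratio 0.936).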

How the results depend on the processing

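Among the 34 genes 0 fell in any of the alternatives. For the 9 risen genes, 85 alternative values stayed past the threshold, 46 did not and 0 changed sign. The cytosolic count of 7 was 6 to 10 under other normalizations, filters, offsets and models. It was 0 to 8 with 1 array left out, and 0 without the 2 arrays of highest GAPDH ratio. The mitochondrial count of 1 was 2 with median centring, quantile normalization or the stricter filter, 0 with no filter or without the arrays of highest GAPDH ratio, and 0 to 1 with 1 array left out. With a replicate block the cytosolic count was 8 and the mitochondrial count 0, and of the 9 risen genes 8 passed, all but Sars2. Aimp1 and Lars1 passed with it as well. The labels give the numbers as biological replicates and name no batch. Replicate 1 had the higher GAPDH ratio in every group. The ratios were 7.52 and 1.39 in clone II, 2.09 and 1.45 in the other GLI1 arrays, and 3.66 and 1.43 in parental cells. Deviations between replicates correlated at 0.321 between clone II and parental cells, and at 0.104 and 0.068 for the other pairs of groups. The part of the replicate number in these results was not tested. The clone II count of 7 was 1 with no intensity trend, and 0 to 8 with 1 array left out. The count of 9 in the other GLI1 arrays was 5 with no intensity trend, and 3 to 6 with 1 array left out. Median centring moved the median difference of all tested probe sets to 0.17 from 0.0047, and 13 of 34 genes then rose. Over all probe sets 1087 rose and 1351 fell, against 1454 and 944 with median centring, 244 and 281 with the first parental array left out, 290 and 417 with the second left out, and 158 and 168 with both high-GAPDH arrays left out. Genes with small differences changed sign. With median centring the difference was 0.10 for Aars2, 0.14 for Farsa and 0.15 for Nars2. With quantile normalization it was -0.02 for Aars1, 0.073 for Aars2, 0.017 for Farsa and 0.15 for Nars2. With both high-GAPDH arrays left out it was -0.009 for Aars1, 0.037 for Aars2, -0.10 for Kars1, 0.20 for Nars2 and -0.032 for Qars1. The other Hars1 probe set gave -0.21. With 1 array left out, values spanned 0 in 6 genes: -0.15 to 0.025 for Aars2, -0.17 to 1.02 for Eprs1, -0.31 to 0.27 for Farsa, -0.21 to 0.29 for Kars1, -0.42 to 0.14 for Nars2 and -0.11 to 0.46 for Qars1. The cause of these moves was not tested.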
